A study of Rattus norvegicus with 60 samples.

Results

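Transcript levels in hippocampus were compared with those in frontal cortex of the same rats, gene by gene, on Affymetrix rat arrays. All arrays labelled hippocampus or frontal_cortex were candidates, and 9 hippocampus arrays were compared with 12 frontal cortex arrays, 21 of the 60 arrays of the series. The hippocampus arrays of congenic animal 3, NP animal 8 and NP animal 11 had been left out, with earlier results of these data known. The rats were untreated adults of the congenic NP.P line or of the selected non-preferring line NP. The labels do not say which segment the congenic rats carry. In hippocampus, 5 arrays came from congenic rats and 4 from NP rats, and in frontal cortex 6 came from each line. All rats were handled daily before decapitation, and the RNA of each rat was labelled on its own. The 12 animals gave 9 pairs of arrays from 1 brain. The labels give no age beyond adult, no sex and no borders of the dissections.

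The hippocampus is the simple, older cortex of the medial temporal lobe. It is built of the dentate gyrus, whose granule cells send mossy fibres to CA3, and of the CA fields, whose pyramidal cells carry the signal on to the subiculum and neocortex. The frontal cortex is a layered neocortex, with pyramidal cells of upper layers that project within the cortex, pyramidal cells of deep layers that project below it, and a varied set of GABA neurons. The pyramidal cells of both are dorsal telencephalic neurons. The hippocampus lies against a lateral ventricle with its choroid plexus, while the frontal cortex lies under the meninges. All values below are the deposited log2 values. A difference is hippocampus minus frontal cortex on that scale, given with the standard error (SE) of the limma fit, and a difference of 1 is 2-fold.

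The labels of the hippocampus arrays were set against markers and other regions, with the choice of left-out arrays already made. Correlations with amygdala and accumbens were taken with the median array of each, those with hippocampus as medians over single arrays. These measures are not alike. The 9 kept hippocampus arrays correlated at 0.973 to 0.979 with the median amygdala array. The hippocampus array of congenic animal 3 correlated at 0.995 with the median amygdala array and at a median of 0.971 with the kept hippocampus arrays. That of NP animal 8 was at 0.989 with amygdala, 0.987 with accumbens and 0.967 with hippocampus. Prox1, the homeobox factor of dentate granule cells, was at 8.91 and 8.71 on these arrays, the level of frontal cortex. The left-out array of NP animal 11 went the other way. Its Prox1 was 11.12 and its Fibcd1 10.15, both within or above the range of the kept hippocampus arrays, while its median correlation with them was only 0.976, against 0.990 to 0.994 among the 9 kept arrays. Counts were therefore also taken with this array and with all 12. Array medians lay between 8.26 and 8.34. Precision is limited by the number of rats.

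Of the 10359 genes with signal, 2731 were higher in hippocampus (26.4%) and 2870 lower (27.7%) at a limma adjusted p under 0.05. These shares are the background for the counts of list members below, and a list near them shows no more than genes at large. At least 2-fold higher were 135 genes (1.3%) and at least 2-fold lower 156 (1.51%). In 1797 genes (17.3%) the hippocampus and frontal cortex arrays did not overlap, 801 of them higher in hippocampus and 996 lower. Most differences were small. The median absolute difference over all genes was 0.12, the 90th percentile 0.48 and the 99th percentile 1.495. The median signed difference was -0.0018, close to 0. With all 12 hippocampus arrays 2659 genes were higher and 2573 lower, 108 and 124 of them at least 2-fold, and with the array of NP animal 11 alone added back 138 and 148 were at least 2-fold.

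**Figure D1:**
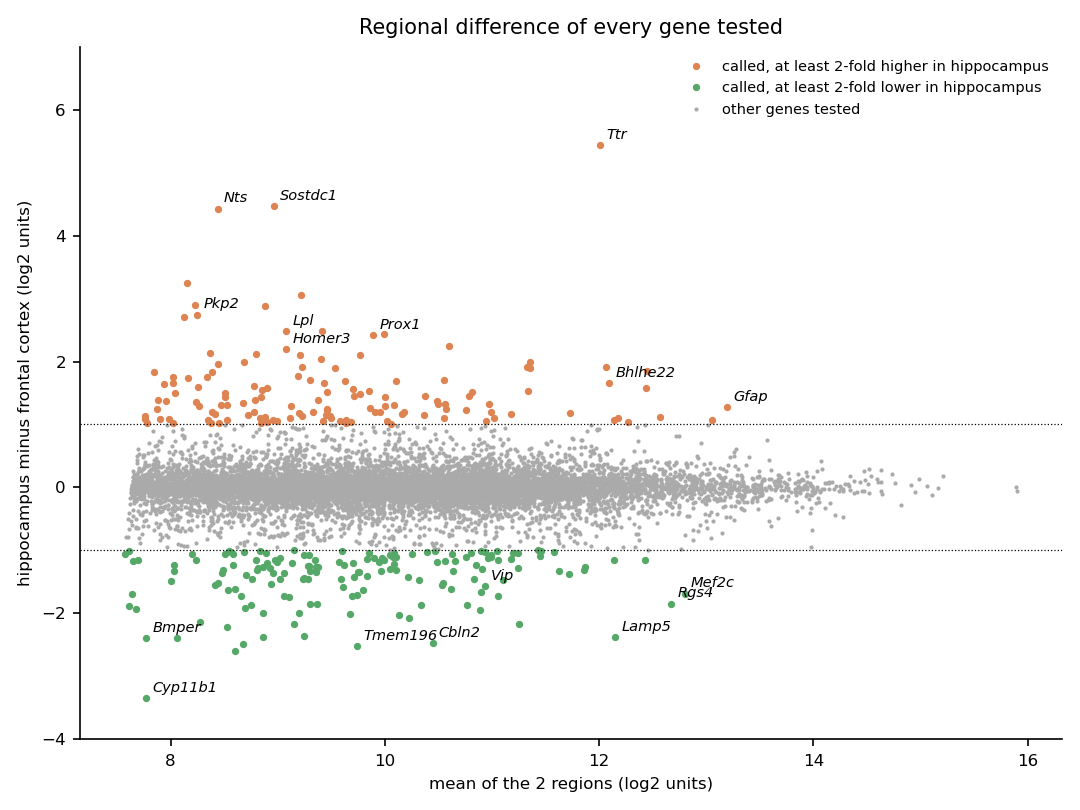
Difference between hippocampus and frontal cortex (vertical axis, log2 units) against the mean of both regions (horizontal axis, log2 units) for the 10359 genes tested, 1 point each. Orange points are the 135 genes called at least 2-fold higher, green points the 156 called at least 2-fold lower, and the dotted lines mark 2-fold. Nts and Cyp11b1 stand at the 2 ends among genes whose difference had 1 sign in all 9 pairs.

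Nts, the precursor of the peptide neurotensin, had the largest difference among genes with the same sign in every pair. It lay between 10.34 and 10.90 (median 10.65) on the 9 hippocampus arrays, against 5.96 to 6.68 (median 6.14) on the 12 frontal cortex arrays, a difference of 4.43 ± 0.08 or 21.6-fold (adjusted p = 2.09e-21). No frontal cortex array came near the lowest hippocampus array. The frontal cortex values lie under the filter limit of 7.63, and no detection calls were used, so such a low side is a measured value near the bottom of the scale and not a proven level of transcript. Fibcd1, which encodes a membrane receptor that binds chitin, was at 9.50 to 9.99 (median 9.67) against 6.52 to 6.99 (median 6.82), a difference of 2.90 ± 0.06 (adjusted p = 9.87e-21). Ntf3, the neurotrophin that acts through the receptor TrkC, was at 9.10 to 9.78 (median 9.52) in hippocampus against 6.55 to 6.93 (median 6.80) in frontal cortex (difference 2.70 ± 0.07).

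The promoters of 4 genes with large differences, 2 in each direction, are shown with their E-boxes, the letters CANNTG. Several factors that bind E-boxes were themselves higher in hippocampus, while Bhlhe40, also such a factor, was lower (-0.81). Each is a window of 300 bases over the gene start, from RefSeq in the GRCr8 build, 5′ to 3′ along the gene, with E-boxes in capitals. Nts (chr7:39460839-39461138, minus strand) holds 2 boxes and Fibcd1 (chr3:35524093-35524392, minus strand) none. Among genes lower in hippocampus, Exph5 (chr8:62594866-62595165, plus strand) holds none and Tmem196 (chr6:147039591-147039890, plus strand) 1. None is printed for Cyp11b1, the gene with the largest negative difference.
Nts: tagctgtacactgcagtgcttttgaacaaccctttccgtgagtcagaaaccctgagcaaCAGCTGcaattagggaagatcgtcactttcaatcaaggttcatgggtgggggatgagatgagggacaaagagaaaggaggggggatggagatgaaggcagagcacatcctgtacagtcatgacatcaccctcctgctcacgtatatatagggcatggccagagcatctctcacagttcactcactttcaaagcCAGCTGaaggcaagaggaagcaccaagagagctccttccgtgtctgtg
Fibcd1: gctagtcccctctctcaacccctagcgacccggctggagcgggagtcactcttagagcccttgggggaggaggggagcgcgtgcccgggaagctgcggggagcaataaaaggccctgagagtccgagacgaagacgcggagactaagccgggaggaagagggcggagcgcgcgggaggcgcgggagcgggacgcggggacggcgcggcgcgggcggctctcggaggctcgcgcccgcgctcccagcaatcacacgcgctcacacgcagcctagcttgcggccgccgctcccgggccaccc
Exph5: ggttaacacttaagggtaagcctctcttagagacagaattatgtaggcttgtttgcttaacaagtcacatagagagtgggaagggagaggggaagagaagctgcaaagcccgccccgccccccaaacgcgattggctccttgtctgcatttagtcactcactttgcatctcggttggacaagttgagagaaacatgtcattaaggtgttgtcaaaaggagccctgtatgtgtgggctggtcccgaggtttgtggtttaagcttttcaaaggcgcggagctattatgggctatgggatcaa
Tmem196: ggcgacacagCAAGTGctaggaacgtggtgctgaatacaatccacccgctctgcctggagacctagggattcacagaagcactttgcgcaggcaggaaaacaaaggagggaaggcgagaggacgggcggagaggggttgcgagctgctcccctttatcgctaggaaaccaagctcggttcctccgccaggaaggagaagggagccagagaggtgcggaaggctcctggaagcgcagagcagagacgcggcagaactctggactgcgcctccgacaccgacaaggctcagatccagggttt
CANNTG reads the same on both strands, so a box counts once and no other motif was searched. It was present in 65.56% of the 90 promoters found for genes at least 2-fold higher, in 68% of the 125 found for genes at least 2-fold lower, and in 62.15% of the 8648 found for all genes tested. Over all 27457 promoters available, tested or not, the share was 71.57%, above both groups. A match is only letters in this window.

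Of 25 listed genes of CA field pyramidal cells, 19 had signal, and 15 were higher, 10 of them at least 2-fold, and 4 lower, with a median difference of 1.10. Nts, Fibcd1 and Ntf3 lay under the filter limit in frontal cortex and passed it only through hippocampus. The count of higher genes is therefore partly set by the filter. Besides Nts, Fibcd1 and Ntf3, Cpne7, a copine that binds membranes with calcium, was at 11.56 to 11.91 (median 11.72) against 9.15 to 9.66 (median 9.48). Its relative Cpne4 was at 11.22 to 11.64 (median 11.36) against 9.32 to 9.93 (median 9.77), with no overlap in either gene. Nr2f2, a nuclear receptor of caudal cortex and CA regions, differed by 1.69 ± 0.08, with 0.56 on its second probe set, and Wfs1, a protein of the endoplasmic reticulum known from CA1 cells, by 1.32 ± 0.07. Wfs1 also marks upper cortical layers and was the member of that list with the largest positive difference. Grik4, the kainate receptor subunit of CA3 cells, was at 9.60 to 10.11 (median 9.80) against 8.79 to 9.23 (median 9.05), a difference of 0.75 ± 0.06. Zbtb20, a zinc finger repressor needed for CA1 identity in mice, was higher by 1.38 ± 0.09 and its 5 other probe sets by 1.05 to 1.53. The 4 lower members, Spock1, Dkk3, Mpped1 and Pcp4, lay between -0.14 and -0.29.

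**Figure D2:**
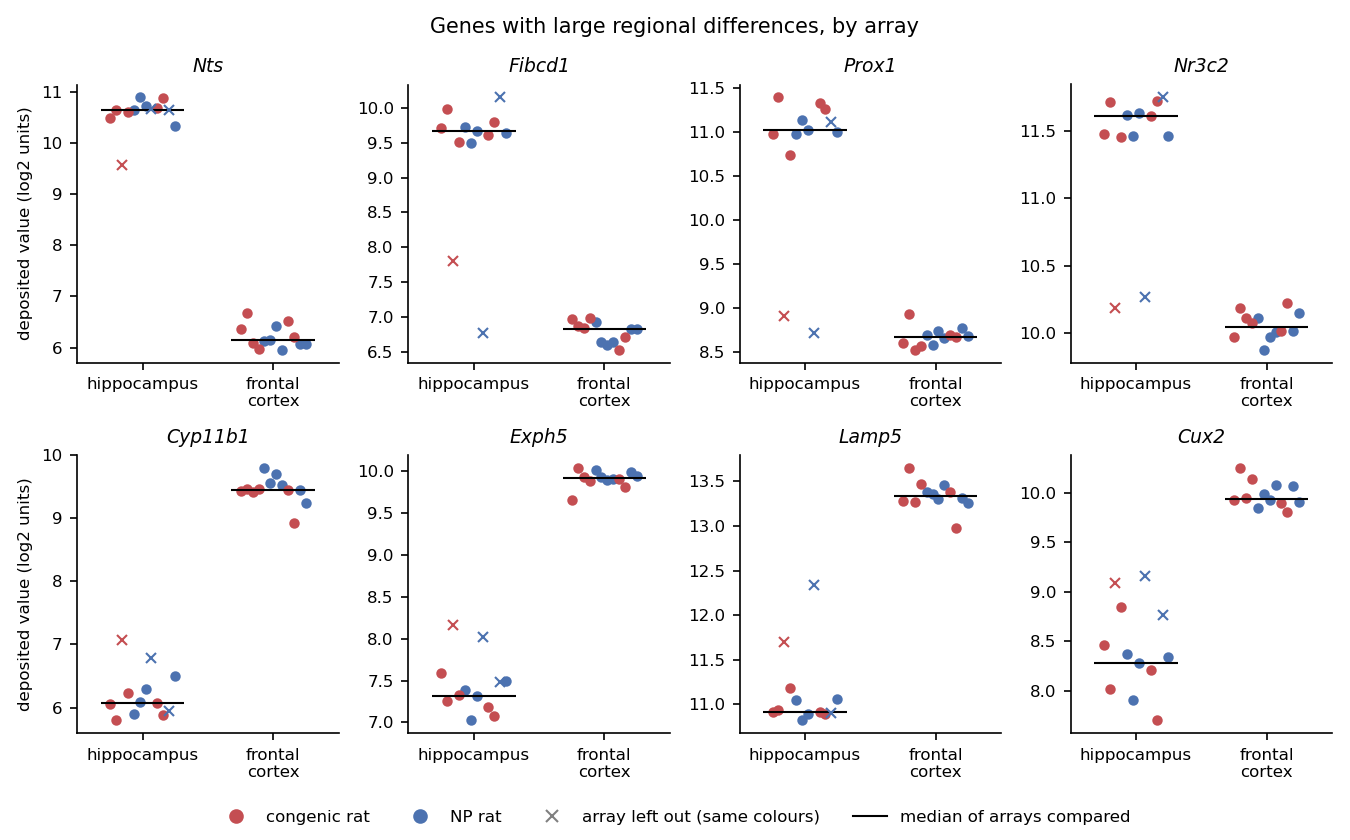
Deposited log2 values (vertical axis) of 8 genes on each array, hippocampus left of frontal cortex in each panel; filled points are the 9 and 12 arrays compared, crosses the 3 hippocampus arrays left out, and lines the medians. In all 8 genes the compared arrays of the regions do not overlap, and the left-out arrays of congenic animal 3 and NP animal 8 lie at the level of frontal cortex for Prox1 (8.91 and 8.71) but far above it for Nts (9.57 and 10.67).

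Granule cell genes of the dentate gyrus gave a smaller list median, 0.46. Of 19 listed genes, 14 had signal, with 8 higher, 2 lower and 4 not called. Prox1 was at 10.74 to 11.40 (median 11.03) in hippocampus against 8.52 to 8.94 (median 8.68) in frontal cortex, a difference of 2.42 ± 0.07 (adjusted p = 5.78e-19). Neurod1, a basic helix-loop-helix factor of granule cell differentiation, differed by 1.53 ± 0.08, from 10.35 to 11.24 in hippocampus against 8.75 to 9.32. Rfx3 was higher by 0.97 and Pdyn, the dynorphin precursor carried by mossy fibres, by 0.51 ± 0.05. Calb1, the calcium buffer of granule cells and of upper cortical layers, was lower by a small amount (-0.18), and Stxbp6 was at -0.27. Of the neurogenesis list, 7 of 15 genes with signal were higher and 2 lower, with a median of 0.001. Dcx, a marker of young neurons, was at -0.24, and Stmn1 at -0.68. Calb2, also a thalamus and interneuron marker, was at 0.84 ± 0.06.

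Transcription factors of the forebrain divided the regions in both directions, 15 higher and 14 lower of 36 with signal (median 0.02). Several basic helix-loop-helix factors were higher, while Bhlhe40 of the same family was lower (-0.81). Bhlhe22, also called Bhlhb5, was at 12.69 to 13.23 (median 12.88) against 11.16 to 11.41 (median 11.27), a difference of 1.66 ± 0.05. Neurod6 was higher by 1.05 ± 0.05 and Neurod2 by 0.44. With all 12 hippocampus arrays the difference of Neurod6 was 0.58 and not called (limma adjusted p = 0.102). Lower were Mef2c, an activity-regulated factor of cortical neurons, at 11.69 to 12.45 (median 11.91) against 13.54 to 13.78 (median 13.63), and Meis2 at -1.18 ± 0.06. Mef2c differed by -1.69 ± 0.07 (adjusted p = 2.78e-16), and its other probe set by -1.60. Emx2 (0.42) was higher while Emx1 (-0.34) was lower, and Tbr1 (-0.62), Satb1 (-0.58) and Lmo4 (-0.61) were lower.

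At the other end, Cyp11b1 had the largest negative difference, with 5.80 to 6.50 (median 6.07) in hippocampus against 8.92 to 9.80 (median 9.45) in frontal cortex. The difference was -3.35 ± 0.08 or 10.2-fold (adjusted p = 7.38e-20), and it was negative in all 9 pairs. The gene encodes the steroid 11-beta-hydroxylase of the adrenal cortex. It has close relatives in the rat genome, and the name comes from the platform annotation of a single kept probe set, so which transcript this probe set measured is uncertain. Exph5, which encodes an effector of Rab27 in vesicle transport, was at 7.02 to 7.59 (median 7.32) against 9.65 to 10.04 (median 9.91). Its hippocampus values were under that limit as well. Tmem196, a transmembrane protein, was at 8.10 to 9.04 (median 8.49) against 10.89 to 11.14 (median 11.00). Their differences were -2.61 ± 0.06 and -2.52 ± 0.08.

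Genes of upper layer neurons of neocortex had a list median of -0.49, close to the -0.48 of cortical interneurons, with 11 of 15 genes lower, 5 at least 2-fold, and 3 higher. Lamp5, a membrane protein of upper layer and some GABA neurons, was at 10.82 to 11.19 (median 10.92) in hippocampus against 12.97 to 13.66 (median 13.34) in frontal cortex, a difference of -2.38 ± 0.06. Cux2, the homeobox factor of layers II to IV, was at 7.70 to 8.85 (median 8.28) against 9.80 to 10.25 (median 9.94), a difference of -1.74 ± 0.10. Stard8 differed by -1.59 ± 0.05 and Inhba, the activin beta A subunit, by -1.46 ± 0.06. A second probe set of Inhba did not differ (0.02, adjusted p = 0.72), and the second of Cux2 gave -0.73. Deep layer genes did not go one way: 8 were higher and 9 lower of 20 with signal, with a median of -0.05. With all 12 hippocampus arrays 5 were higher and 8 lower, and of the upper layer genes 1 was higher and 9 lower. Opn3, an opsin, differed by -1.94 ± 0.07, Rprm, a cell cycle inhibitor, by -1.85 ± 0.10 and Tox by -1.06 ± 0.07. Nr4a2 (1.43 ± 0.07), Bcl11b (1.17 ± 0.07, with 1.63 and 1.79 on other probe sets), which also marks CA1 and granule cells, and Crym (0.99 ± 0.09) were higher. Fezf2, the determinant of subcortical projection neurons, was close in the regions, with 9.78 to 10.07 (median 9.80) against 9.79 to 10.37 (median 10.09), and a difference of -0.20 ± 0.06 (adjusted p = 0.00605).

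**Figure D3:**
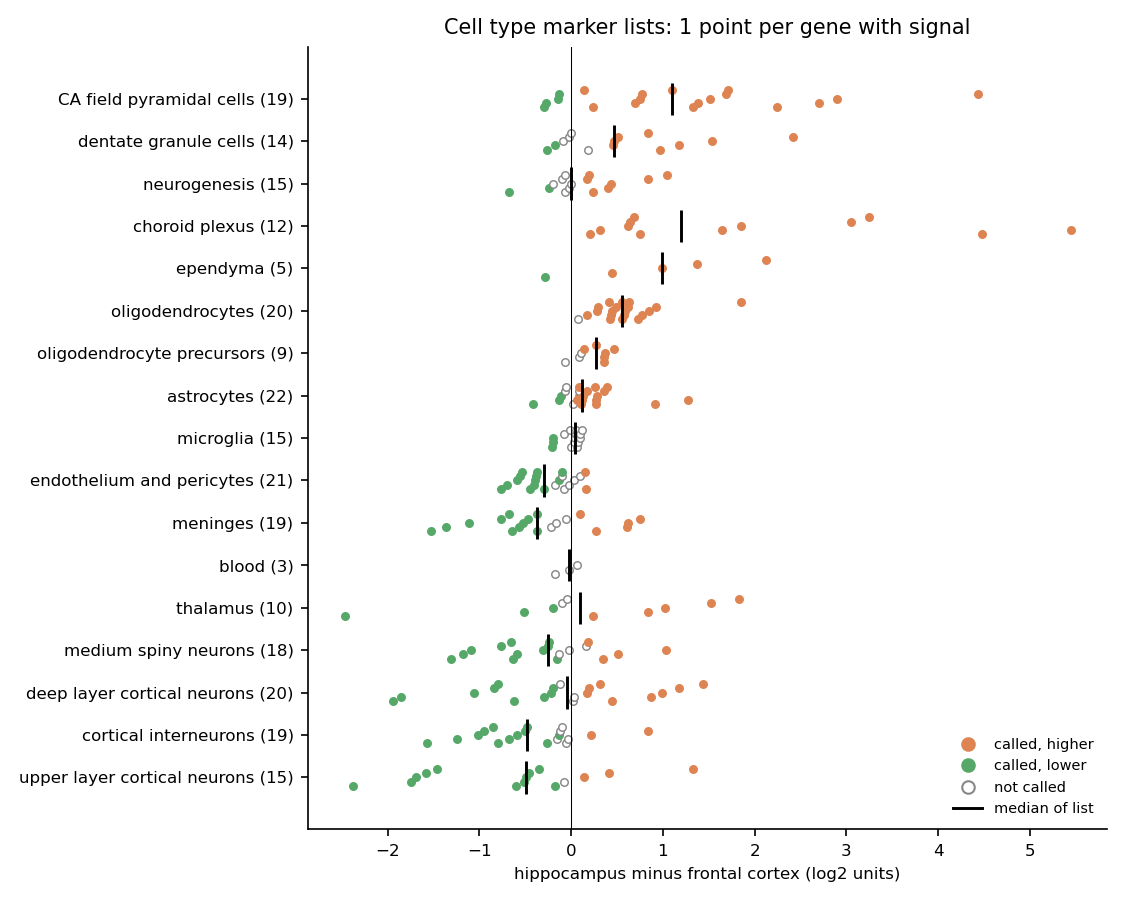
Difference between hippocampus and frontal cortex (horizontal axis, log2 units) of each gene with signal in 17 cell type marker lists, with the number of genes in brackets. Filled points were called, open points were not, and the bars are list medians, from 1.197 for choroid plexus and 1.10 for CA field genes to -0.48 for cortical interneurons and -0.49 for upper layer neurons.

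Of 19 interneuron genes with signal, 12 were lower and 2 higher (median -0.48), and with all 12 hippocampus arrays 10 and 1 (median -0.189). Vip was at 9.97 to 10.33 (median 10.14) in hippocampus against 11.54 to 11.80 (median 11.76) in frontal cortex, a difference of -1.57 ± 0.05. Crh, corticotropin-releasing hormone, differed by -1.24 ± 0.07. Pvalb, the parvalbumin of fast-spiking cells, was at 10.78 to 11.11 (median 10.98) against 11.80 to 12.20 (median 11.94). For Sst the difference was -0.68 ± 0.05, for Npy -0.86 ± 0.04 and for Cck -0.95 ± 0.05, each without overlap of the arrays. The calcium buffer gene Calb2 was higher (0.84 ± 0.06), and the peptide gene Pnoc was at -0.15 and not called. The GABA-synthesizing enzyme gene Gad1 was at -0.05 and the vesicular transporter gene Slc32a1 at -0.09, neither called, and Gad2 was slightly higher (0.22). In bulk tissue, fewer cells of a type and less RNA per cell cannot be told apart.

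Across peptides and their receptors, 16 of 31 genes were lower and 7 higher (median -0.225). Among receptors, these were lower: Cckbr, the brain cholecystokinin receptor, at 9.18 to 9.62 (median 9.43) against 10.34 to 10.75 (median 10.60), Sstr1 at -1.05 ± 0.05 (-0.44 on its second probe set), Npy1r at -0.82 and Vipr1 at -0.75. Tacr3, the neurokinin B receptor, was at 7.55 to 7.98 (median 7.83) against 8.75 to 9.76 (median 9.48), a difference of -1.62 ± 0.09. Penk, the enkephalin precursor, was at -0.66. Some ligands and receptors went apart. Adcyap1, the PACAP precursor, was lower (-0.43) and its receptor Adcyap1r1 higher (0.76), Nmb was higher (1.03) and its receptor Nmbr lower (-0.22), and the somatostatin receptor gene Sstr4 was higher (0.22) while Sst was lower. Nts and Pdyn, described with the hippocampal lists, were higher too.

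Glutamate receptors differed subunit by subunit, with no common direction. Of 14 AMPA receptor genes, 4 were higher and 7 lower (median -0.13). Gria1, the subunit most tied to hippocampal plasticity, was at 10.34 to 10.92 (median 10.51) against 9.32 to 9.74 (median 9.59), a difference of 1.01 ± 0.06. Gria3 was at 12.10 to 12.41 (median 12.25) against 12.67 to 12.995 (median 12.82), a difference of -0.56 ± 0.05. Among auxiliary subunits, Cacng8 (1.13 ± 0.10) and Cnih2 (1.12 ± 0.05) were higher, and Cacng2, also called stargazin (-0.79 ± 0.05), and Cacng3 (-0.76 ± 0.04) lower. A second Cacng2 probe set gave only -0.13. AMPA receptor genes at least 2-fold higher numbered 3, and 1 with all 12 hippocampus arrays. For NMDA receptors, 5 of 8 genes were higher and 2 lower (median 0.236). Grin2a (0.48 ± 0.16) and Grin2b (0.38 ± 0.13) overlapped between the regions, and their second probe sets gave 0.01 (limma adjusted p = 0.903) and 0.14. Both lost the call when the array of NP animal 11 was kept (limma adjusted p = 0.0913 and 0.197), which left 3 of 8 higher. Dlg1, a scaffold of the postsynaptic density, differed by -0.77 ± 0.04.

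Homer3, a scaffold of group I metabotropic receptors, was among the genes with the largest differences, at 10.00 to 10.55 (median 10.12) in hippocampus against 7.76 to 8.23 (median 7.94) in frontal cortex. Homer1 went the other way, at 11.65 to 11.84 (median 11.75) against 12.60 to 12.83 (median 12.71). Its difference was -0.95 ± 0.03 on the chosen probe set and between -0.71 and -2.17 on the 4 others. The receptor gene Grm5 itself was higher by 0.56 ± 0.13. Of vesicular glutamate transporters, Slc17a6 differed by 1.52 ± 0.10 while Slc17a7, the main one of both regions, was at 0.12 and not called. Of the 5 kainate receptor genes 4 were higher and 1, Neto2, lower (-0.57). Slc17a6 is also a thalamus marker, as are Cbln1 and Cbln2, which went opposite ways. Of that list 5 genes were higher and 3 lower of 10, and Tcf7l2, the thalamic factor, was at 8.89 to 9.12 (median 9.03) against 8.79 to 9.45 (median 9.05) and not called.

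GABA-A receptor subunits divided 4 to 4 among 9 genes with signal. Gabra5, the extrasynaptic alpha subunit known as hippocampal, was at 12.27 to 12.54 (median 12.39) against 11.06 to 11.74 (median 11.39), a difference of 0.99 ± 0.06, and Gabra2 differed by 0.89 ± 0.04. Below frontal cortex were Gabrb2, at 12.25 to 12.61 (median 12.45) against 13.11 to 13.46 (median 13.28), Gabrd (-0.65 ± 0.05) and Gabra3 (-0.62 ± 0.08). The probe sets of Gabrd differed in size, with -1.25 and -0.16 on the others, and the second of Gabrb2 gave -0.36.

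Monoamine receptors included some of the clearest contrasts between single genes. Htr1a, the inhibitory serotonin receptor, was at 8.75 to 9.04 (median 8.92) in hippocampus against 6.78 to 7.32 (median 7.16) in frontal cortex, a difference of 1.76 ± 0.06. Htr2a, the excitatory receptor of cortical pyramidal cells, was at 7.44 to 8.25 (median 7.88) against 9.60 to 10.04 (median 9.87), a difference of -1.99 ± 0.09. The arrays did not overlap for either gene. Htr2c, which choroid plexus also expresses strongly, was at 11.13 to 12.80 (median 12.55) against 9.96 to 10.96 (median 10.31). Its lowest hippocampus array was that of congenic animal 2, which was also lowest for the choroid plexus genes, and the part of choroid plexus in its difference of 1.99 ± 0.16 was not tested. Adra1b, the alpha-1B adrenergic receptor, was at 7.28 to 9.14 (median 7.45) against 9.57 to 10.34 (median 10.03), and the array of congenic animal 1 alone lay above 7.80 in hippocampus. Without that animal the difference was -2.55, against -2.38 ± 0.16 with it. Drd1 was at 7.88 to 8.54 (median 8.27) against 8.01 to 8.84 (median 8.40) and not called, and Drd2 did not reach the filter limit. On the left-out arrays of congenic animal 3 and NP animal 8, Drd1 was at 11.02 and 12.42. Of catecholamine receptors 1 of 7, Adra2c (0.48 ± 0.07), was higher and 2 were lower, and of serotonin receptors 4 of 6 were higher and 1 lower. Chrna4, a nicotinic alpha subunit, was lower (-0.67 ± 0.06) and Chrna7 higher (0.38) among acetylcholine receptors, 2 of which were higher and 4 lower of 7. Of 4 genes of the cannabinoid system, Cnr1, the main brain receptor, was higher (0.33) and 3 lower.

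Receptors for adrenal steroids were unequal as well. Nr3c2, the mineralocorticoid receptor, which binds corticosterone with high affinity, was at 11.46 to 11.72 (median 11.61) in hippocampus against 9.88 to 10.22 (median 10.05) in frontal cortex, a difference of 1.51 ± 0.04 or 2.85-fold (adjusted p = 2.3e-18). Nr3c1, the glucocorticoid receptor, was lower by a small amount (-0.19 ± 0.04) on one probe set and at 0.06 on the other. Of their target genes, Sgk1 (0.48 ± 0.09) and Fkbp5 (0.44 ± 0.06) were higher, and Per1 (0.11) and Tsc22d3 (-0.0046) were not called. Crhbp, the binding protein of corticotropin-releasing hormone, differed by -1.23 ± 0.07, beside -1.24 for Crh itself. In all, 4 genes of this list were higher and 3 lower of 10.

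Of the immediate early genes, 12 of 21 with signal were lower and 5 higher (median -0.41). Egr1 was at 11.75 to 12.02 (median 11.87) in hippocampus against 12.70 to 13.24 (median 13.05) in frontal cortex, and Egr2 at 7.17 to 8.03 (median 7.68) against 8.65 to 9.66 (median 9.29). Their differences were -1.16 ± 0.05 and -1.55 ± 0.13. Fos was lower on one probe set (-1.07 ± 0.10) and did not differ on the other (0.04, adjusted p = 0.448). Arc (-0.41), Nr4a1 (-0.44) and Dusp1 (-0.67) were lower too. Against them stood Nr4a3, at 11.37 to 11.75 (median 11.60) against 9.97 to 10.70 (median 10.43), and Nr4a2, with Jun (0.70) and Bdnf (0.39). Other probe sets of Nr4a3 gave 0.26 and 0.96, against 1.19 for the first.

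Of 45 potassium and HCN channel genes, 25 were lower, 7 at least 2-fold, and 14 higher, none at least 2-fold (median -0.29). Kcns1, a modifier of Kv2 channels, was at 7.51 to 7.88 (median 7.71) against 8.94 to 10.47 (median 9.74), a difference of -1.92 ± 0.14. Dpp10, a partner of Kv4 channels, differed by -1.66 ± 0.07, Kcnv1 by -1.47 ± 0.04 and Kcnt1, a sodium-activated channel, by -1.42 ± 0.06. The 2-pore channels Kcnk2 (-1.35 ± 0.05) and Kcnk4 (-1.25 ± 0.06) were lower as well. One further probe set each of Kcnt1 (-0.04) and Kcnk2 (-0.12) did not show this size. Above frontal cortex were Kcnab1 (0.89), a Kv1 beta subunit, Kcnip2 (0.76) and Kcna4 (0.59).

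For sodium and calcium channels the counts were 12 higher and 11 lower of 31 (median -0.004). Scn4b, the beta-4 subunit that shapes resurgent current, was at 9.65 to 9.99 (median 9.81) against 11.42 to 12.06 (median 11.69), a difference of -1.87 ± 0.06, and Scn1a, the channel of fast-spiking cells, differed by -1.27 ± 0.06. Ryr3, a calcium release channel, was at 10.24 to 10.70 (median 10.43) against 8.73 to 9.30 (median 9.00), a difference of 1.45 ± 0.05. Trpc4 (1.39 ± 0.05) and the T-type channel Cacna1h (1.05 ± 0.07) were higher also. At least 2-fold higher were 4 of these genes, and 2 with all 12 hippocampus arrays.

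Calcium and kinase signalling was lower in 25 and higher in 14 of 49 genes (median -0.12). Over all genes 27.7% were lower and 26.4% higher, so the count of higher genes is near the background. Plcb4, a phospholipase C of Gq pathways, was at 8.93 to 9.37 (median 9.19) against 11.08 to 11.53 (median 11.24), a difference of -2.08 ± 0.06. Rgs4, which shortens Gq and Gi signals, was at 11.16 to 12.19 (median 11.84) against 13.43 to 13.65 (median 13.61), and its second probe set gave -1.85, as did the first. Camkk2 differed by -0.89 ± 0.05. Hpca, hippocalcin, a neuronal calcium sensor named for the hippocampus, was at 13.40 to 13.82 (median 13.60) against 12.26 to 12.69 (median 12.54), a difference of 1.08 ± 0.05. Camk2a, the plasticity kinase, was at 0.0035 and not called.

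Guidance molecules were among the lists with more genes higher than lower. Of 29 semaphorin, plexin, slit and netrin genes with signal, 18 were higher and 8 lower (median 0.226), and with all 12 hippocampus arrays 16 and 5. Nrp2, a co-receptor of class 3 semaphorins, was at 10.18 to 10.73 (median 10.41) against 8.10 to 8.77 (median 8.41), a difference of 2.05 ± 0.08, and Nrp1 differed by 1.17 ± 0.05. Ntng1 (1.17 ± 0.08), Unc5a (1.15 ± 0.11) and Plxna4 (0.94 ± 0.07) were higher, and Robo2 lower (-0.61). Ephs and ephrins gave opposite extremes: Epha6, at 9.35 to 9.69 (median 9.63) against 7.70 to 8.34 (median 7.98), and Efna5, a ligand of EphA receptors, at 7.77 to 8.50 (median 8.27) against 9.84 to 10.56 (median 10.22). Efnb3 (1.46 ± 0.10) and Epha7 (1.13 ± 0.08) were higher, Ephb6 (-0.92 ± 0.04) and Ephb3 (-0.84 ± 0.07) lower.

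Adhesion molecules were lower in 16 and higher in 11 of 34 genes (median -0.11), from Pcdh19, a protocadherin, at 1.25 ± 0.08 to Cdh12, a cadherin, at -1.16 ± 0.07. Beside the counts of this paragraph stand the shares over all genes, 27.7% lower and 26.4% higher. Of the cerebellins, which join neurexins to postsynaptic receptors, Cbln1 was at 8.35 to 9.27 (median 8.74) against 6.40 to 7.26 (median 6.95) and Cbln2 at 9.01 to 9.40 (median 9.21) against 11.46 to 11.85 (median 11.69). Their differences, 1.83 ± 0.11 and -2.47 ± 0.05, were opposite in all 9 pairs. Most Wnt genes were not called, 13 of 23. Wnt4 was the exception in size, at 10.01 to 10.55 (median 10.18) against 8.31 to 8.61 (median 8.45), a difference of 1.71 ± 0.05, with the receptor Fzd1 at 0.98 ± 0.05. Of 15 genes of neurotrophins and other growth factors 6 were higher and 6 lower. Receptors of GDNF ligands were unequal, Gfra1 at 0.87 ± 0.05 and Gfra2 at 8.50 to 9.07 (median 8.90) against 10.18 to 10.44 (median 10.33), a difference of -1.46 ± 0.06.

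Several further genes at the upper end belong to none of these groups. Pkp2, a protein of the desmosomal plaque, was at 9.27 to 9.98 (median 9.58) against 6.50 to 7.11 (median 6.92), a difference of 2.75 ± 0.09. Gpr161, a receptor of the primary cilium that restrains hedgehog signalling, was at 10.30 to 10.95 (median 10.74) against 8.03 to 8.39 (median 8.14), and its second probe set gave 2.34. Lpl, lipoprotein lipase, differed by 2.48 ± 0.09 and Vav3 by 2.43 ± 0.12. Rerg, a Ras-like protein, was higher by 2.10 ± 0.07 and Nkain3 by 2.00 ± 0.07. At the lower end, Bmper, which binds bone morphogenetic proteins, was at 6.34 to 6.80 (median 6.56) against 8.60 to 9.33 (median 8.96), and Car10, a catalytically inactive carbonic anhydrase relative, at 9.84 to 10.56 (median 10.15) against 11.95 to 12.50 (median 12.37). Trim54, Tnnc2 and Cox6a2, best known from striated muscle, differed by -2.39 ± 0.10, -2.37 ± 0.10 and -2.17 ± 0.09. The exchange factor Rasgef1c (-2.48 ± 0.09), the odorant receptor Olr59 (-2.22 ± 0.06) and the glycoprotein Tpbg (-2.15 ± 0.06) completed this end. None of these genes overlapped between the regions, while 17.3% of all genes tested had no overlap. They were named for the largest differences with the same sign in every pair. The lack of overlap was therefore largely fixed by that choice and is no separate result. Probe sets without a single gene name reached a similar size: 1391123_at (3.57 ± 0.08) and 1382626_at (3.10 ± 0.06) were higher, 1390539_at (-3.05 ± 0.07) and 1379373_at (-2.41 ± 0.07) lower.

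Markers of medium spiny neurons, the main cells of the striatum next to frontal cortex, were lower in 11 of 18 and higher in 4 (median -0.249). With all 12 hippocampus arrays only 5 were lower, and the median was 0.043. The members with the largest differences were Arpp19 (-1.31 ± 0.04), Meis2 and Rasd2 (-1.10 ± 0.06), which are also expressed in cortex. Penk (-0.66), Tac1 (-0.59), Pde10a (-0.30), Ppp1r1b (-0.255) and Adcy5 (-0.24) were lower too, and Drd1 and Adora2a were not called. The part of striatal tissue in these differences was not tested. Rxrg, a retinoid X receptor of striatum, was higher (1.03 ± 0.10), and the hippocampus array of congenic animal 1 was highest for it. Of 13 retinoid genes 2 were higher and 7 lower, and 4 were lower with all 12 hippocampus arrays.

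Of 20 oligodendrocyte genes, 19 were higher and none lower, with a median of 0.555, and the mean of the list lay between 11.89 and 12.00 (median 11.95) in hippocampus against 11.19 and 11.71 (median 11.33) in frontal cortex. The largest difference, 1.86 ± 0.21, was that of Enpp2, which choroid plexus shares and whose lowest hippocampus array was also that of congenic animal 2. Gsn, gelsolin, differed by 0.93 ± 0.05, Hapln2 by 0.85 ± 0.06, Ugt8, the enzyme of galactolipid synthesis in myelin, by 0.77 ± 0.07 and Opalin by 0.73 ± 0.07. Mbp, myelin basic protein, at 15.28 to 15.35 (median 15.30) against 15.01 to 15.27 (median 15.13), is near the top of the scale and differed by 0.17 ± 0.03. Precursor genes were higher in 6 of 9 and lower in none. Astrocyte genes were higher in 15 and lower in 3 of 22, but the median was 0.11 and 2 genes stood out: Gfap, the intermediate filament of astrocytes, at 13.66 to 14.06 (median 13.82) against 12.21 to 12.84 (median 12.60), and Agt, angiotensinogen, at 0.91 ± 0.05. Aif1 of microglia was at 8.91 to 9.43 (median 9.01) against 8.94 to 9.43 (median 9.10). Of 15 microglia genes 12 were not called and 3 were lower, 1 with all 12 hippocampus arrays, among them P2ry12 (-0.21 ± 0.06).

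Genes of vessels were more often lower than higher in hippocampus, none of them by 2-fold, and vessel content was not measured. Endothelial and pericyte genes were lower in 13 and higher in 2 of 21 (median -0.29). Vwf, von Willebrand factor, was at 9.55 to 10.09 (median 9.74) against 10.24 to 10.82 (median 10.45), Tek, the angiopoietin receptor, differed by -0.59 ± 0.04 and Abcc9 of pericytes by -0.76 ± 0.08. The blood genes Slc4a1 (0.06), Hbb (-0.02) and Alas2 (-0.17) were not called.

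Choroid plexus genes gave some of the largest differences and the most uneven ones. Of 23 listed genes, 12 had signal and 12 were higher, 6 at least 2-fold. Signal was judged on the mean over both regions. Genes such as F5, with a mean of 6.53 in frontal cortex and 9.77 in hippocampus, passed only through hippocampus. The count of higher genes is therefore partly set by the filter. Ttr, transthyretin, the main secreted protein of choroid plexus, was at 13.42 to 15.04 (median 14.91) in hippocampus against 7.87 to 14.68 (median 8.18) in frontal cortex, a difference of 5.45 ± 0.74 (adjusted p = 1.2e-06). Most frontal cortex arrays were near 8, but that of congenic animal 2 was at 14.68, of NP animal 5 at 13.90 and of congenic animal 10 at 9.78. In congenic animal 2 the hippocampus array had the lowest Ttr of the 9, 13.42, so that this pair alone had more Ttr in frontal cortex. Sostdc1 (4.47 ± 0.52), the coagulation factor gene F5 (3.25 ± 0.33), Folr1, a folate receptor (3.06 ± 0.35), Enpp2 and Kcne2 (1.65 ± 0.22) were positive in 8 of 9 pairs and overlapped between the regions. Without the frontal cortex arrays of animals 2, 5 and 10, an alternative chosen after their Ttr was seen, the difference of Ttr was 6.65 and that of Sostdc1 5.07. With all 12 hippocampus arrays they were 4.52 and 3.68. The count of 12 higher, 6 at least 2-fold, was the same in both, and 11 were higher without animal 1. Mfrp (2.89 ± 0.33), Scgb1c1 (1.66 ± 0.22) and Ace, angiotensin-converting enzyme (2.13 ± 0.26, with 1.31 on its second probe set), are not on the list and were named for their spread between arrays. They too were positive in 8 of 9 pairs. Ependymal genes were higher in 4 of 5, with Dynlrb2, a dynein light chain, at 9.15 to 10.23 (median 9.75) against 7.32 to 8.55 (median 7.72), Tekt1 at 1.37 ± 0.09 and Tmem212 at 1.00 ± 0.07.

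Meningeal genes went the other way, 11 lower and 5 higher of 19 (median -0.38). Col3a1, a fibrillar collagen, was at 7.73 to 9.39 (median 8.07) against 8.01 to 10.72 (median 9.75), a difference of -1.53 ± 0.25, and Col1a2 was at -1.37 ± 0.28. In congenic rats alone Col1a2 was at -0.81 (limma adjusted p = 0.128) and Ogn at -0.85 (limma adjusted p = 0.18), neither called, and in NP rats alone Col1a2 was at -1.98. Ogn (-1.11 ± 0.30) and Aldh1a2 (-0.76 ± 0.14), the retinoic acid enzyme of meninges, overlapped between the regions too, and in 1 or 2 of the 9 pairs they were higher in hippocampus. Coch, not on the list, was at 7.01 to 9.29 against 6.26 to 11.08 (difference -1.21 ± 0.40), and lost its call without the frontal cortex arrays of animals 2, 5 and 10 (limma adjusted p = 0.0513). Without those arrays 9 meningeal genes were lower, with all 12 hippocampus arrays 8, and without animal 1, whose hippocampus array was highest for Col1a2 and Col3a1, 13. Slc13a4, of the choroid plexus list, was at 8.65 to 11.34 against 8.20 to 11.00 (difference 0.68 ± 0.27, limma adjusted p = 0.0339), a call lost on leaving out any 1 of animals 1, 4, 5, 6, 9, 10 and 11 (limma adjusted p from 0.0516 to 0.091). The mean of the list lay between 9.11 and 9.91 (median 9.55) in hippocampus against 8.95 and 10.65 (median 9.95) in frontal cortex. Igf2 (0.75) and Igfbp2 (0.63), which choroid plexus shares, were among the higher members. The part of choroid plexus and meninges in the differences of other genes was not tested.

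**Figure D4:**
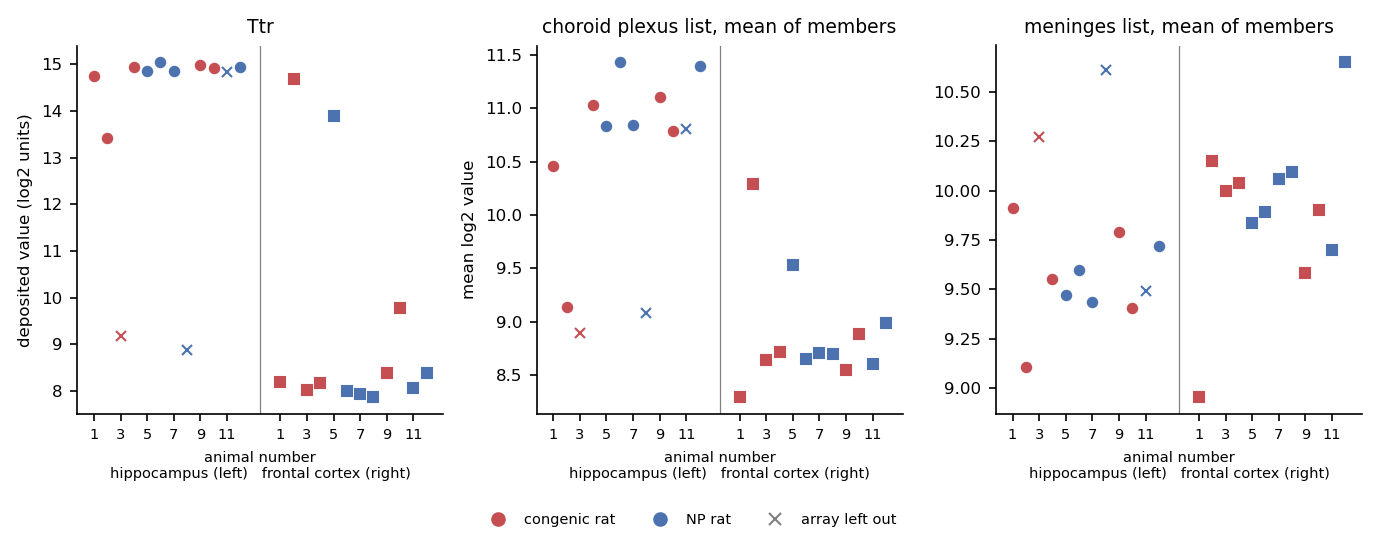
Values by animal number (horizontal axis), hippocampus left and frontal cortex right of the line in each panel, for Ttr and for the mean log2 values of the choroid plexus and meninges lists. Red marks congenic and blue NP rats, and crosses are the arrays left out. Frontal cortex of animals 2 and 5 had 14.68 and 13.90 in Ttr, near the hippocampus arrays, and the other frontal cortex arrays lay at or below 9.78.

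Housekeeping lists stayed near the overall median. Of 44 genes of oxidative phosphorylation, 25 were not called, 16 were lower and 3 higher (11 and 5 without the frontal cortex arrays of animals 2, 5 and 10), and none differed by 2-fold (median -0.06), with Cox5a at -0.27 ± 0.07. Of 34 ribosomal protein genes, 13 were higher and 1 lower (median 0.06), with Rplp0 at 0.26 ± 0.04. Of 18 chaperone genes 8 were higher and 4 lower (median 0.10).

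In both lines the same contrast was seen. With congenic rats alone, 283 genes (2.73%) were at least 2-fold different, and with NP rats alone 299 (2.89%). Both lists held 252 genes with the same sign, 89.05% of the congenic list and 84.28% of the NP list, and 0 genes were opposite. Nts differed by 4.36 in congenic and 4.51 in NP rats, Prox1 by 2.48 and 2.35 and Cyp11b1 by -3.35 in both. A test of the difference between the lines called 0 genes (0%), with a smallest adjusted p of 0.413, while 824 genes had an unadjusted p under 0.05. The gene with the smallest p was Ppig, a nuclear cyclophilin, with -0.15 in congenic and -0.59 in NP rats (difference between lines 0.44, adjusted p = 0.413). Then came C1qtnf6 (-0.18 in congenic and 0.19 in NP rats), Zfp292 (0.12 and -0.15), Ahi1 (0.31 and -0.04), Esrrb (-0.11 and 0.17), Sfmbt2 (-0.04 and 0.25), Pold2 (0.30 and 0.55), Herc1 (0.15 and 0.56), Ina, an intermediate filament of neurons (-0.59 and -0.90), and Nhsl3 (-0.55 and -0.27), none called. Without animal 2, 1 probe set was called, that of Ppig (difference between lines 0.50, limma adjusted p = 0.0286).

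**Figure D5:**
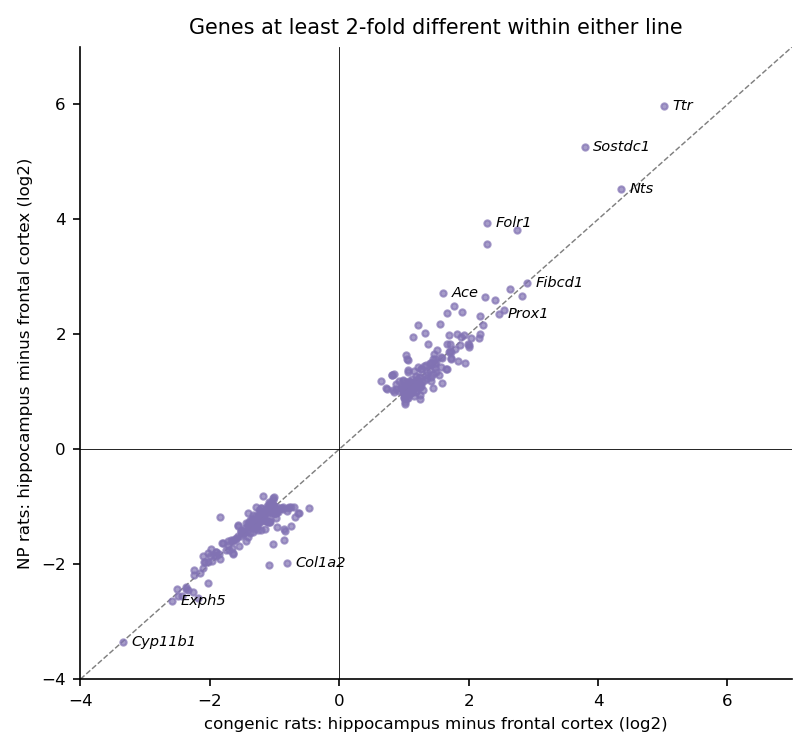
Difference between hippocampus and frontal cortex within NP rats (vertical axis) against the same within congenic rats (horizontal axis), in log2 units, for genes at least 2-fold different in either line. The dashed line marks equality, and every point has 1 sign in both lines. Choroid plexus genes such as Folr1 and Sostdc1 lie above the dashed line, but no difference between lines was called. The hippocampus array of congenic animal 2 was the lowest for Sostdc1. Without animal 2 the Sostdc1 difference over both lines was 5.21, against 4.47 with it.

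The arrays of amygdala, accumbens and striatum set the contrast beside 3 further regions. Of the 135 genes at least 2-fold higher in hippocampus, 114 had their highest median of all 5 regions there, and in 73 frontal cortex was the lowest. Of the 156 at least 2-fold lower, frontal cortex was highest in 120 and hippocampus lowest in 118. Both sets were chosen for their gap between these regions on the same arrays, so the ranks are partly fixed by that choice. The shares over all genes tested were not taken. On a scale with frontal cortex at 0 and hippocampus at 1, the median position of amygdala over the higher genes was 0.379, of accumbens 0.176 and of striatum 0.09. Over the lower genes the positions were 0.666 for amygdala, 0.698 for accumbens and 0.425 for striatum. Fibcd1, Prox1, Homer3 and Wnt4 were low in all 4 other regions, with Prox1 medians of 8.82 in amygdala, 8.79 in accumbens and 8.70 in striatum. Nts differed from these, with medians of 9.36 in amygdala, 10.47 in accumbens and 8.87 in striatum, all above frontal cortex at 6.14. Htr2c and Lpl were also high elsewhere, with 12.80 and 9.87 in accumbens. Among genes lower in hippocampus, Exph5 was at 8.47 in amygdala, 8.16 in accumbens and 8.64 in striatum, and Kcns1 at 7.76, 7.87 and 8.43, all below frontal cortex. Drd1 was near 8 in both compared regions and at 12.50 in accumbens and 12.51 in striatum.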

How the data were processed

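The series holds 60 Affymetrix arrays, one for each of 5 brain regions in each of 12 rats, hybridized with labelled total RNA. The authors' deposited values are on a log2 scale, as their range shows, and the background correction and normalization behind them are not given in the sources used here. No scanner files were used, so neither could be repeated. Of 31099 probe sets, 57 controls were removed, and 18625 with a mean over the 21 arrays at or above the 40th percentile (7.63) were tested. A gene under this limit in either region could pass through the other, so list counts in both directions depend in part on the filter. Platform annotation gave 14035 of these 1 gene symbol, and each of 10359 genes was represented by its probe set with the highest mean.

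limma 3.58.1 in R 4.3.3 fitted region and line with the animal as a random block (consensus correlation 0.029). P-values were adjusted by Benjamini-Hochberg over all 18625 probe sets, and an adjusted p under 0.05 was a call. A second fit tested region by line. The labels give both arrays of a pair the same animal, which sets the pairing. The deviations of the 9 pairs correlated at -0.31 to 0.31 (median -0.01). The fits were tried on simulated data only without the animal block and with independent noise, so the block itself was not tested. Figures were drawn with matplotlib 3.10.9.

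Named are the 15 genes with the largest difference in each direction among called genes with 1 sign in all 9 pairs, up to 6 called members per list with the members each list is best known for, the 10 genes with the smallest p between lines, the 6 called genes with the largest SD in each region, and 2 probe sets without a single symbol per direction. Some further list members are given by their difference alone, and were chosen after their values were seen. The members and the gene lists were chosen with earlier results of these data known. Alternatives were other filters, scalings, blocks and sets of arrays, and leaving out each animal, for which the consensus correlation of the full fit was kept. Every column of values was mapped to a sample.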

Additional observations from a re-analysis of the deposited data

Results flagged for a closer look

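Of 175 named genes and unnamed probe sets examined over the 9 hippocampus arrays, 22 had 1 array far from the others. Chance gives about 1 in 20 for independent genes that were not selected. Some of these genes were named for their spread on these same arrays, and many flags fall on the same array. The 22 can therefore not be set against that rate. The array of congenic animal 2 was lowest for Ttr (13.418), Sostdc1 (7.852), F5 (7.08), Mfrp (7.922), Kcne2 (7.024), Enpp2 (11.871), Slc13a4 (8.65), Htr2c (11.126), Dynlrb2 (9.15), Calb2 (9.718) and Tpbg (6.905). It was highest for Homer3 (10.551), Nrp1 (10.935) and Wnt4 (10.548). The array of congenic animal 1 was highest for Adra1b (9.14), Col1a2 (9.542), Col3a1 (9.391), Lpl (10.594), Neurod1 (11.237) and Rxrg (9.488), and lowest for Unc5a (8.997). That of NP animal 7 was highest for Sgk1 (12.54). All values are log2 units.

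In 3 genes every congenic pair moved one way and every NP pair the other. The difference between lines was -0.3659 for C1qtnf6, -0.2798 for Esrrb and 0.2725 for Zfp292, and the limma test of that difference did not call any of them after adjustment.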

How the results depend on the processing

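Counts here are of probe sets. At least 2-fold higher were 223, and 130 with the 60th percentile filter, which tests fewer probe sets (12417). Tested against a 1.2-fold difference, 1142 were higher and 1396 lower, against 5060 and 5067 tested against no difference. Leaving out 1 animal at a time gave 4756 to 5291 higher, 4777 to 5045 lower, 222 to 230 and 257 to 279 at least 2-fold higher and lower, and 0 to 1 differing between lines. The paired analysis with a fixed replicate block gave 9245 calls and no replicate block 10047, against 10127 with the random block. With the fixed replicate block Ahi1 (0.14), Coch (-1.14) and Slc13a4 (0.66) were no longer called, and Esrrb (-0.0045) and Zfp292 (0.0076), called in neither, changed sign. With all 12 hippocampus arrays Aif1 was at 0.0155, Drd1 at 0.4837, Tcf7l2 at 0.1223 and Zfp292 at 0.0193, with the sign turned. Keeping the array of NP animal 11 turned C1qtnf6 (0.0029) and Zfp292 (0.0021). In congenic rats alone Aif1 (0.0757), Esrrb (-0.1113), Sfmbt2 (-0.0394) and Zfp292 (0.1228) had the other sign, and in NP rats alone Ahi1 (-0.0333) and C1qtnf6 (0.1907). Without 1 animal, C1qtnf6 ranged over -0.0379 to 0.0284, Esrrb over -0.0064 to 0.0458 and Zfp292 over -0.0312 to 0.0285. The cause was not tested in these cases. Of the other comparisons of single genes with an alternative that leaves out no single animal, 2272 kept their direction and side of the threshold, 37 lost the call and 5 gained it.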
